A study of Mus musculus with 26 samples.

Results

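The genes described here are 9 members of 4 families that act in the release of synaptic vesicles: the synaptotagmins Syt1 and Syt2, the complexins Cplx1 and Cplx2, the synapsins Syn1 and Syn2, and the small GTPases Rab3a, Rab3b and Rab3c. They are 9 of the 36589 genes in the deposited table and were chosen by name, with their levels over projection systems and over the authors' clusters in view, so those levels are a description and carry no test. Tests were run on 57 other genes of the release machinery, which are not among the members. Their lists were also drawn up with earlier results of these data known, so the p-values are not free of that knowledge.

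Thalamic neurons of mice were labelled by retrograde tracing, in which a tracer taken up at axon terminals travels to the soma, and so grouped by the cortical system they project to. Coronal slices were digested with pronase in the presence of activity blockers, the thalamus was dissected, and fluorescent neurons were picked by hand, per the labels' protocols. Each cell gave a 3′ library with spike-in RNAs and with unique molecular identifiers (UMIs), of which each marks 1 transcript that was captured. The study compared 5 groups of neurons: auditory (380 cells), motor (484), prefrontal (388), somatosensory (285) and visual (435). All 20 animals were listed as male in the authors' cell table, and the sources used here give neither their strain nor their genotype. No group was treated, and every neuron carried the label, so there is no unlabelled control.

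When calcium enters a nerve ending, synaptotagmin on the vesicle binds it and triggers fusion through the SNARE complex, and complexin, which binds that complex, both holds fusion back before the signal and speeds it afterwards. Synapsins coat vesicles and tether them in the reserve pool. Rab3 proteins sit on vesicles in their GTP form and help to dock and prime them. Syt1 is the fast calcium sensor of most forebrain synapses, and Syt2 serves the same role at very fast synapses such as the calyx of Held and at parvalbumin interneurons. Relay neurons of the thalamus are glutamatergic and send fast signals to the cortex. The protein-coding genes lie on GRCm38 at chr10:108497650-109010982 (Syt1), chr1:134646677-134762593 (Syt2), chr5:108518554-108550024 (Cplx1), chr13:54371349-54383917 (Cplx2), chrX:20860511-20921004 (Syn1), chr6:115134902-115282006 (Syn2), chr8:70754679-70758677 (Rab3a), chr4:108879063-108943324 (Rab3b) and chr13:110054187-110280996 (Rab3c).

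The table held 1972 cells on 26 plates and in 3 sequencing batches, with 20509 to 683775 UMIs per cell (median 87292). Cells are not replicates, so UMIs were summed per animal and system. This gave 21 sums (5 auditory, 5 motor, 4 prefrontal, 3 somatosensory, 4 visual) of 4317156 to 20322775 UMIs. Levels are CPM, a gene's UMIs scaled to an equal total in every sum. All somatosensory sums were in batch 2 and all visual sums in batch 3, so only the auditory, motor and prefrontal systems were spread over the batches. Auditory replicate 5 and visual replicate 1 carried the same animal identifier. The neuronal markers Slc17a6, a vesicular glutamate transporter, and Snap25 were detected in 99.6% and 100% of cells, and summed markers of GABA neurons reached at most 21.3 CPM in any sum. Summed oligodendrocyte markers ran from 12.5 to 381 CPM and overlapped between all systems, astrocyte markers reached at most 15.9 CPM, and of the 6 microglia markers only C1qb was above 9.88 CPM. Of 375 distinct cell barcodes, 372 occurred on more than 1 plate, but the plates were indexed apart and 0 cell names were shared between plates.

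The 250 bases before a transcription start are shown for 1 member of each of the 4 families, so that their promoters can be read beside the values that follow. They come from RefSeq on GRCm38.p6, run 5′ to 3′ on the gene's own strand, and carry in capitals each match, on either strand, to 5 motifs: the GC box GGGCGG, the cAMP response element TGACGTCA, the TATA box TATAAA, the nuclear receptor half-site AGGTCA and the E-box CAGCTG. The entries are chr1:134709050-134709299 on the plus strand for the downstream of the 2 listed Syt2 starts, chr5:108550028-108550277 on the minus strand for Cplx1, chr6:115134652-115134901 on the plus strand for Syn2 and chr4:108878820-108879069 on the plus strand for Rab3b.
Syt2: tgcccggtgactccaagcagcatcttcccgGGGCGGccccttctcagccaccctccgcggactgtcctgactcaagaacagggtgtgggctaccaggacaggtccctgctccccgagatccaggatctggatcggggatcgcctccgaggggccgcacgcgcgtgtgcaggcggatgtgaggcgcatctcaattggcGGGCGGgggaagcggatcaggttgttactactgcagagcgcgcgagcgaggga
Cplx1: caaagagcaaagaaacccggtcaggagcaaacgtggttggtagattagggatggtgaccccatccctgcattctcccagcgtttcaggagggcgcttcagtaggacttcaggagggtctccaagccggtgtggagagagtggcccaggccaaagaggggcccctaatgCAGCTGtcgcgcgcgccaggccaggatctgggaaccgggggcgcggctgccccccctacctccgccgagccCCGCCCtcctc
Syn2: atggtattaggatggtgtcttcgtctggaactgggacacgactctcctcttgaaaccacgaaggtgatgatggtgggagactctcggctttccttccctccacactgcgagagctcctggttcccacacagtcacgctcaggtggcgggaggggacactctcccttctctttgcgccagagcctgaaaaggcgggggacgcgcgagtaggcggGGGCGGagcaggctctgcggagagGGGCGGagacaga
Rab3b: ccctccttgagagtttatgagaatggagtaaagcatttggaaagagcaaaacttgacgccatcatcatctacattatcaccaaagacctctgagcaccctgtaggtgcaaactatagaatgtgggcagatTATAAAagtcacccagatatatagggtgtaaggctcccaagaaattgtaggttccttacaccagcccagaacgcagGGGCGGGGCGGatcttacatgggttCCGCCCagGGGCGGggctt

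The Syt2 window held 2 GC boxes, the Cplx1 window 1 GC box and 1 E-box, and the Syn2 window 2 GC boxes. The Rab3b window held 4 GC box matches, of which the first pair overlaps, and 1 TATA box, which no other listed start of a member held. Over 32851 promoter windows of the same length, 32.7% held a GC box, 1.55% the cAMP response element, 12.4% the TATA box, 14% the half-site and 13% the E-box. GC made up 66.4% of the Syt2 window, 64.8% of the Cplx1 window, 61.2% of the Syn2 window and 48.8% of the Rab3b window, against a median of 52.4% over all windows. The RefSeq start of Cplx2 lies outside the gene's range in the annotation used for positions (chr13:54371349-54383917), so its window is not shown. A match is a string of letters in a window and no evidence that a factor binds there.

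Syt1, the main calcium sensor, was abundant in every system and lowest in prefrontal neurons. The prefrontal sums had 1310, 1040, 1631 and 1513 CPM, against 2393, 1982, 2393, 2382 and 1969 CPM in auditory, 2038, 2243, 2065, 2125 and 2049 CPM in motor, 2277, 1905 and 2072 CPM in somatosensory and 2236, 2159, 2028 and 1845 CPM in visual sums. All 4 prefrontal sums lay below all 17 others, also within each batch, and the other 4 systems overlapped. The log2 fold of prefrontal neurons over the other systems' mean was -0.62 ± 0.09 (SE). Per 1000 spike-in UMIs the order was another: prefrontal sums averaged 21.8 ± 7.27 Syt1 UMIs, against 22.3 ± 3.75 in auditory, 34.5 ± 5.32 in motor, 48.2 ± 4.23 in somatosensory and 22.7 ± 4.89 in visual sums (SD, n = 4, 5, 5, 3 and 4). On that scale prefrontal neurons overlapped auditory and visual neurons. The total of UMIs per spike-in UMI itself ran from 10.8 to 19.9 in prefrontal, 8.79 to 11.6 in auditory, 9.25 to 12.7 in visual, 13.2 to 18.8 in motor and 19.1 to 27.3 in somatosensory sums.

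Within systems Syt1 was uneven too. Among the authors' 17 clusters, each of which lies in 1 system and carries its name, Syt1 was highest in Aud_1 (2789 CPM, 2622 to 2947 over 4 animals). It was lowest in Pfr_4 (892 CPM) and Pfr_3 (942 CPM), while the other prefrontal clusters Pfr_1 (2224 CPM) and Pfr_2 (1859 CPM) were near the clusters of the other systems. The lowest prefrontal levels were thus those of these 2 clusters. How much of the low level of the prefrontal sums they account for was not tested. Pfr_3 held 113 cells, all of them in batch 1 and from prefrontal replicates 1 and 2.

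Syt2 was scarce and concentrated. The motor sums had 21.2, 16.2, 15.6, 52.0 and 79.5 CPM, against 0.458, 0.546, 7.29, 5.27 and 2.55 CPM in auditory, 0, 0.0732, 0.0984 and 11.4 CPM in prefrontal, 9.06, 8.45 and 23.1 CPM in somatosensory and 0.153, 1.47, 0.417 and 1.56 CPM in visual sums. Motor sums were the highest apart from an overlap with somatosensory replicate 3, and prefrontal replicate 4 stood above the other prefrontal sums. The log2 fold was 4.15 ± 0.64 in motor and 2.46 ± 1.07 in somatosensory neurons (SE), each over the other systems' mean. Syt2 made up 1.72% ± 1.32 of Syt1 and Syt2 UMIs in motor sums, 0.648% ± 0.397 in somatosensory and 0.0450% ± 0.0372 in visual sums (SD, n = 5, 3 and 4).

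A few cells held most of it. All 2723 Syt2 UMIs came from 114 cells (5.78% of cells), and 13 cells held 50% of them. The gene Ppp1r12b overlaps Syt2 on the opposite strand and had 11964 UMIs. The Syt2 level is uncertain, since the sources used here do not say whether counting used strand. The cluster Mot_1 alone held 71.0% of all Syt2 UMIs at 117 CPM (79.5 to 174 over 5 animals), and Som_1 held 18.9% at 33.3 CPM. In Mot_1, 34 of 97 cells (35.1%) had at least 5 Syt2 UMIs, with up to 167 in 1 cell, and in Som_1 22 of 90 cells (24.4%). Aud_3 followed with 5 of 63 cells (7.94%), and each other cluster had at most 1 such cell. With every cell thinned to 20000 UMIs, 33.0% of Mot_1 cells and 21.1% of Som_1 cells had a Syt2 UMI, against 40.2% and 28.9% at full depth. The authors' 9 clusters over all systems split Mot_1 further. Its 45 cells in joint cluster 1 had 166 CPM and its 23 cells in joint cluster 4 had 101.1 CPM, while its 18 cells in joint cluster 7 had 0 Syt2 UMIs, which allows up to 3.04 CPM (3 counts of their UMIs). Mot_1 made up 14.5% to 33.7% of the cells of a motor sum, and motor replicates 4 and 5, the highest in Syt2, had the largest shares.

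**Figure D1:**
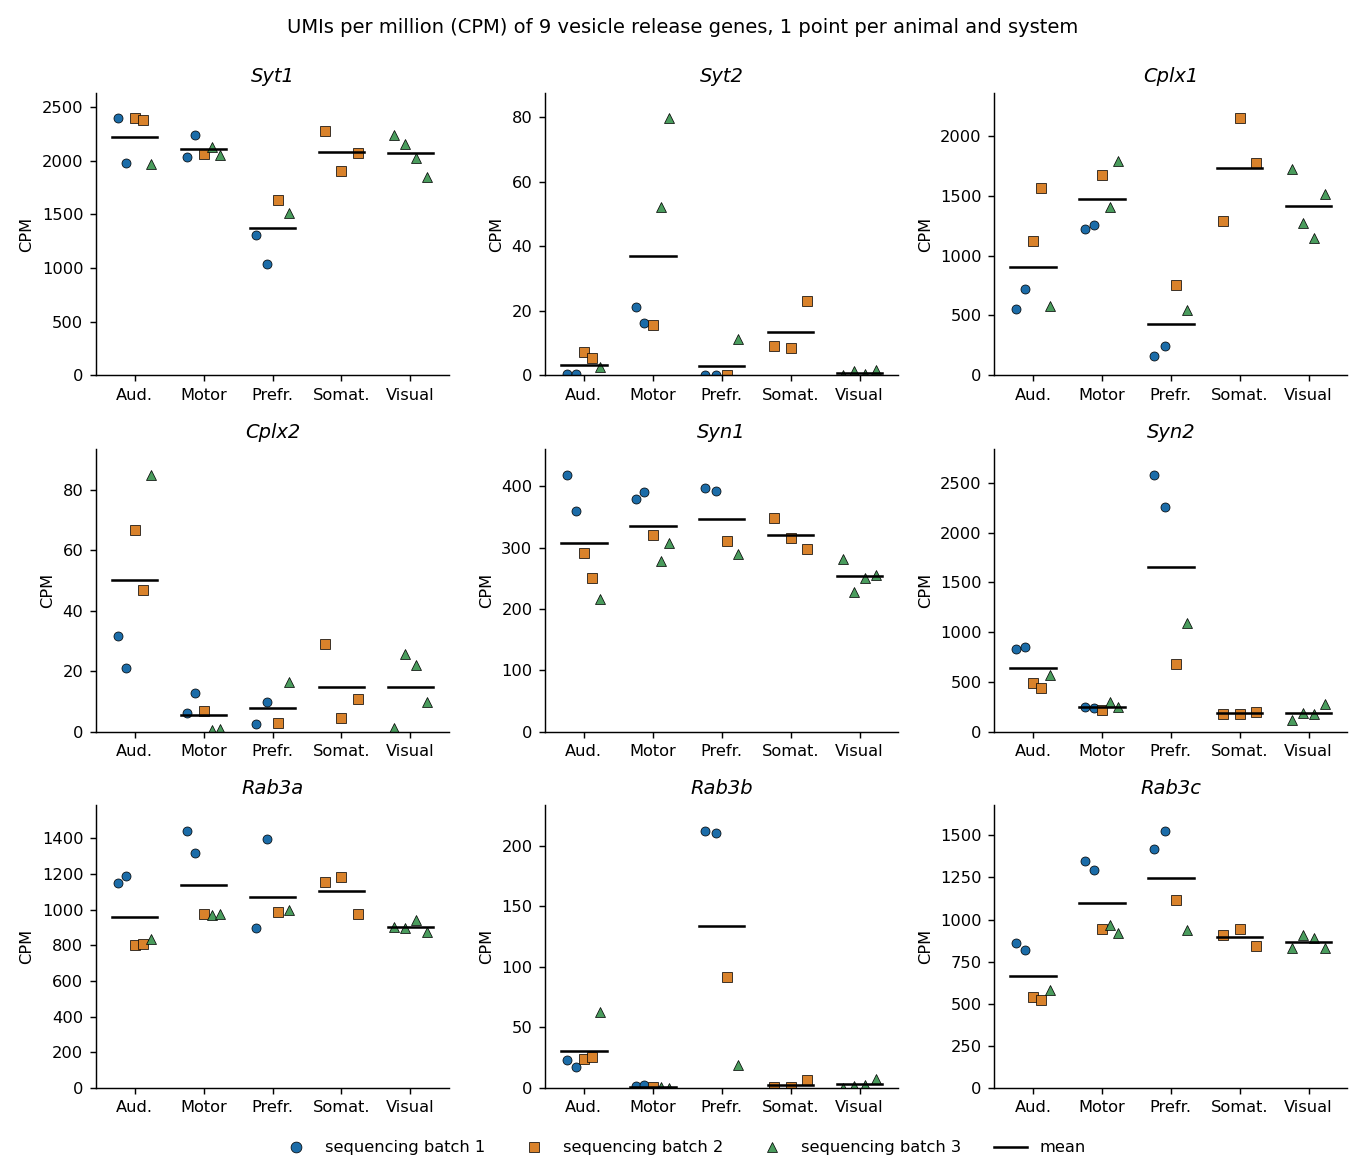
Levels of the 9 genes in the 21 sums, in CPM on axes that start at 0, with 1 point per animal and system, its shape and colour giving the sequencing batch, and a line at each system's mean. By the mean, Syt2 is highest in motor sums (15.6 to 79.5 CPM) and Cplx2 in auditory sums (21 to 85.0 CPM). Rab3b has its highest mean in prefrontal sums (19.2 to 212 CPM). Each of these ranges overlaps that of at least 1 other system.

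Cplx1, the main complexin, was lowest in prefrontal neurons. The prefrontal sums had 166, 242, 754 and 546 CPM, against 558, 721, 1120, 1561 and 577 CPM in auditory, 1221, 1256, 1673, 1407 and 1785 CPM in motor, 1284, 2143 and 1774 CPM in somatosensory and 1723, 1272, 1144 and 1516 CPM in visual sums. Within each batch the prefrontal sums were the lowest, although prefrontal and auditory sums overlapped across batches. The log2 fold over the other systems' mean was -1.58 ± 0.21 (SE) in prefrontal and 0.88 ± 0.18 in motor neurons. Per 1000 spike-in UMIs prefrontal sums averaged 6.92 ± 5.55 and auditory sums 9.40 ± 5.46 Cplx1 UMIs (SD, n = 4 and 5), and their ranges overlapped. Each system had a cluster rich in Cplx1 and one poor in it. Mot_1, Som_1 and Vis_1 had 2357, 2363 and 2353 CPM, Aud_1 had 1889 CPM and Pfr_1 had 1657 CPM. The lowest pooled levels were those of Pfr_3 (108 CPM, 80.4 to 122 between 2 animals), Pfr_4 (137 CPM) and Aud_3 (203 CPM, 203 to 334 over 3 animals with at least 10 of its cells). Pfr_4 ran from 54.9 to 276 CPM between 2 animals and overlapped both other ranges.

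Cplx2, which is prominent in cortical and hippocampal neurons, was the minor complexin here and highest in auditory neurons. The auditory sums had 31.7, 21, 66.8, 46.7 and 85.0 CPM, against 6.13, 12.8, 6.71, 0.683 and 0.917 CPM in motor, 2.36, 9.66, 2.85 and 16.3 CPM in prefrontal, 29.1, 4.37 and 10.9 CPM in somatosensory and 1.30, 25.7, 21.9 and 9.71 CPM in visual sums. Auditory sums were the highest within each batch. Across batches they overlapped the somatosensory and visual sums. The log2 fold of auditory neurons over the other systems' mean was 2.31 ± 0.55 (SE). Cplx2 made up 5.92% ± 4.09 of Cplx1 and Cplx2 UMIs in auditory sums and 0.402% ± 0.396 in motor sums (SD, n = 5 each).

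The 3183 Cplx2 UMIs came from 287 cells (14.6%). The auditory cluster Aud_3 had 211 CPM and held 36.6% of them. The cells of Som_3, Vis_3 and Mot_4 pooled had 54.6, 43.8 and 39.2 CPM. Between the animals with at least 10 cells of the cluster, Som_3 ran from 31.9 to 82.1 CPM (n = 2), Vis_3 from 21.6 to 89.2 CPM and Mot_4 from 1.92 to 33.7 CPM (n = 3 each). The Cplx1-rich clusters Mot_1, Som_1 and Vis_1 had 0.121, 1.62 and 0.626 CPM of Cplx2. At least 5 Cplx2 UMIs were found in 43 of 63 Aud_3 cells (68.3%), 16 of 60 Som_3 cells (26.7%), 9 of 69 Mot_4 cells (13%) and 16 of 135 Vis_3 cells (11.9%). In Aud_3, 28 of 63 cells (44.4%) had more Cplx2 than Cplx1 UMIs, against 65 of 1972 cells (3.30%) in the whole table. UMIs here count 3′ ends, 1 per transcript, and were not divided by gene length. Auditory replicate 5 had the highest Cplx2 level, and Aud_3 made up 33.3% of its cells, the largest share in any auditory sum.

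**Figure D2:**
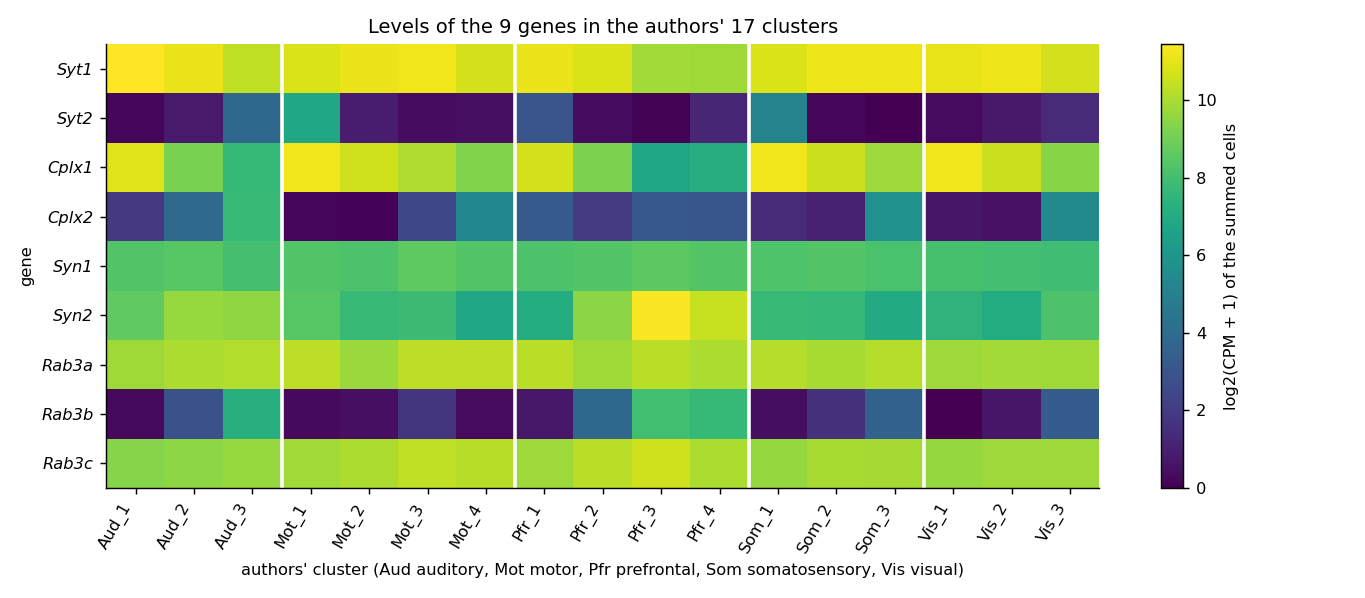
Level of each of the 9 genes in each of the authors' 17 clusters, as log2(CPM + 1), with genes in rows and clusters in columns. Cplx1 is lowest in Pfr_3, Pfr_4 and Aud_3 (108, 137 and 203 CPM), where Rab3b reaches 251, 203 and 148 CPM.

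Synapsin genes differed in how much they varied. Syn1 stayed within 217 to 419 CPM in all 21 sums. Its means were 307 ± 81.9 CPM in auditory, 335 ± 48.0 in motor, 347 ± 55.5 in prefrontal, 254 ± 22 in visual and 320 ± 25.5 in somatosensory sums (SD). Neighbours in the order of the means overlapped, but the visual sums (228 to 282 CPM) lay below all prefrontal (289 to 398 CPM) and somatosensory sums (297 to 348 CPM). All visual sums were in batch 3, where the auditory sum, at 217 CPM, was lower still. The prefrontal sum of batch 3 (289 CPM) lay above all visual sums, and its motor sums had 278 and 308 CPM. With batch in the fit, the log2 fold of visual neurons over the other systems' mean was -0.11 ± 0.11 (SE). Without a batch term the fold was -0.37. Per 1000 spike-in UMIs, somatosensory sums averaged 7.43 Syn1 UMIs (6.65 to 8.59) and visual sums 2.78 (2.37 to 3.57), which did not overlap. The gene Araf lies on the opposite strand of Syn1 and had 52090 UMIs against 72076 for Syn1. The Syn1 level is uncertain, since the sources used here do not say whether counting used strand.

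Syn2 was highest in prefrontal neurons. The prefrontal sums had 2582, 2254, 676 and 1090 CPM, against 827, 852, 491, 436 and 568 CPM in auditory, 251, 234, 217, 301 and 248 CPM in motor, 178, 180 and 201 CPM in somatosensory and 121, 185, 175 and 278 CPM in visual sums. Prefrontal and auditory sums lay above all sums of the other 3 systems, and within each batch the prefrontal sums were the highest. The log2 fold over the other systems' mean was 2.23 ± 0.18 (SE) in prefrontal and 0.73 ± 0.17 in auditory neurons, and -1.34 ± 0.24 in visual and -0.91 ± 0.18 in motor neurons. Per 1000 spike-in UMIs, prefrontal sums had 11.8 to 40.2 Syn2 UMIs and auditory sums 4.86 to 9.27, which did not overlap.

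The Syn2 level followed clusters. Pfr_3 had 2643 CPM and Pfr_4 1454 CPM, while Pfr_2 had 697 CPM and Pfr_1 137 CPM, close to Vis_2 (130 CPM). Aud_2 (815 CPM) and Aud_3 (745 CPM) stood above Aud_1 (400 CPM). The prefrontal replicates 1 and 2, in which Pfr_3 lies, had the highest Syn2. Counted per cell, 310 of 388 prefrontal cells (79.9%) had more Syn2 than Syn1 UMIs. This held for 71.6% of auditory, 33.3% of motor, 30.5% of somatosensory and 30.3% of visual cells. In Pfr_4 it held for 95 of 97 cells and in Pfr_1 for 13 of 44 cells.

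Rab3a, the most abundant Rab3 gene of brain, ran from 800 to 1442 CPM over the 21 sums, with means of 956 ± 194 CPM in auditory, 1135 ± 227 in motor, 1069 ± 222 in prefrontal, 904 ± 27.8 in visual and 1105 ± 113 in somatosensory sums (SD). Neighbours in the order of the means overlapped, but the visual sums (873 to 940 CPM) lay below all motor (969 to 1442 CPM) and somatosensory sums (976 to 1184 CPM). All visual sums were in batch 3, where the auditory sum, at 837 CPM, was lower still. The motor sums (969 and 977 CPM) and the prefrontal sum (997 CPM) of batch 3 lay above all visual sums. With batch in the fit, the log2 fold of visual neurons over the other systems' mean was -0.11 ± 0.11 (SE). Without a batch term the fold was -0.24. Per 1000 spike-in UMIs, somatosensory sums averaged 25.8 Rab3a UMIs (22.1 to 32.3) and auditory sums 9.54 (7.36 to 12.9), which did not overlap. Rab3c, a close relative on the same vesicles, had a similar level. The auditory sums had 862, 816, 542, 519 and 583 CPM of Rab3c, against 1346, 1297, 942, 970 and 921 CPM in motor, 1419, 1527, 1117 and 935 CPM in prefrontal, 910, 944 and 842 CPM in somatosensory and 828, 909, 889 and 831 CPM in visual sums. Auditory sums were the lowest within each batch. The log2 fold of auditory neurons over the other systems' mean was -0.78 ± 0.06 (SE). Rab3c UMIs outnumbered those of Rab3a in 131 of 380 auditory cells (34.5%), 54.8% of motor, 60.8% of prefrontal, 41.8% of somatosensory and 47.4% of visual cells.

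Rab3b, known from endocrine cells and from a minority of brain synapses, had a mean in prefrontal neurons 140 times that in motor neurons. The prefrontal sums had 212, 211, 91.6 and 19.2 CPM, against 22.8, 17.4, 23.8, 25.2 and 63.0 CPM in auditory, 1.43, 2.14, 0.377, 0.683 and 0.115 CPM in motor, 0.591, 0.664 and 6.27 CPM in somatosensory and 0.0763, 1.64, 2.29 and 6.95 CPM in visual sums. Every prefrontal and auditory sum lay above every sum of the other 3 systems. In batches 1 and 2 the prefrontal sums were the highest. In batch 3 auditory replicate 5 was higher than the 1 prefrontal sum. The log2 fold over the other systems' mean was 4.67 ± 0.61 (SE) in prefrontal, 2.45 ± 0.53 in auditory and -3.97 ± 0.79 in motor neurons.

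Of the 7509 Rab3b UMIs, 57.4% came from Pfr_3, and 22 cells held 50%. The level was 251 CPM in Pfr_3, 203 CPM in Pfr_4 and 148 CPM in Aud_3, against 13.3 CPM in Pfr_2 and 0.675 CPM in Pfr_1. Pfr_4 itself ran from 28.0 to 334 CPM between 2 animals with at least 10 of its cells. At least 5 Rab3b UMIs were found in 59 of 113 Pfr_3 cells (52.2%), 39 of 97 Pfr_4 cells (40.2%) and 29 of 63 Aud_3 cells (46.0%). Of the other clusters, Pfr_2 had the largest such share, 8 of 134 cells (5.97%). In 8 cells, all prefrontal, Rab3b UMIs outnumbered those of Rab3a. Joint cluster 9, made up of 99 prefrontal cells, combined the highest Syn2 (2787 CPM) and Rab3b (279 CPM) of the 9 joint clusters with the lowest Cplx1 (84.5 CPM) and Syt1 (824 CPM). Joint cluster 8, with 62 auditory and 3 visual cells, had the highest Cplx2 (212 CPM) and 146 CPM of Rab3b. Joint cluster 1, with 174 cells, had the highest Syt2 (60.5 CPM) and Cplx1 (2396 CPM).

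**Figure D3:**
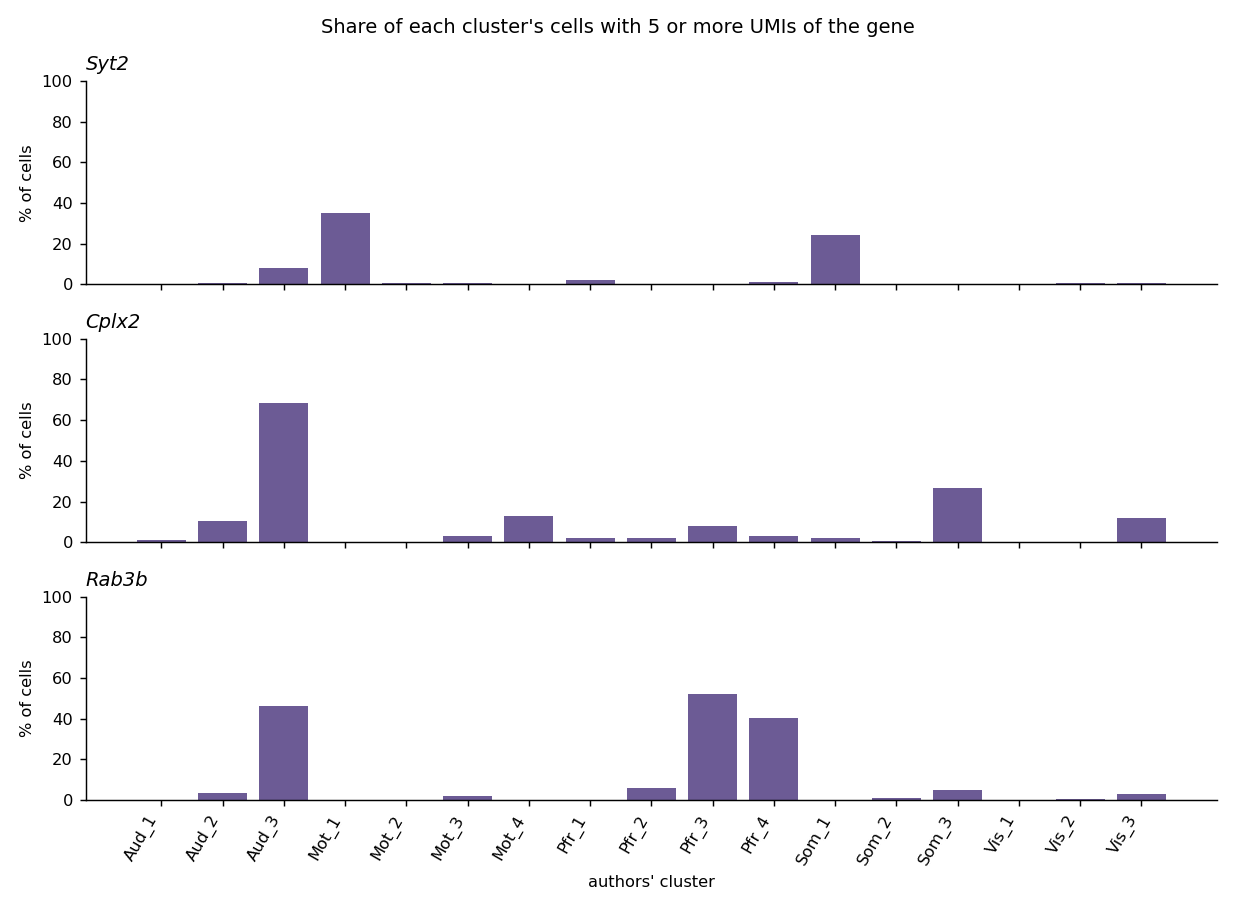
Share of cells with at least 5 UMIs of Syt2, Cplx2 and Rab3b in each of the authors' 17 clusters, in percent. Syt2 peaks in Mot_1 (35.1%) and Som_1 (24.4%), Cplx2 in Aud_3 (68.3%), and Rab3b in Pfr_3 (52.2%), Aud_3 (46.0%) and Pfr_4 (40.2%).

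Cells were also put in 3 classes by the anchor gene with the most CPM in the cell, out of Tnnt1, Necab1 and Calb2: 756 cells in the Tnnt1, 532 in the Necab1 and 611 in the Calb2 class, with 73 cells in none. The classes cut across the systems and were compared within animals. Somatosensory neurons gave 0 Calb2 sums, so both contrasts with the Calb2 class hold no somatosensory animal. They split the same cells as the authors' clusters, so the values of the 9 genes are again a description. Summed oligodendrocyte markers had medians of 21.3 CPM in the Tnnt1, 62.5 CPM in the Necab1 and 68.3 CPM in the Calb2 sums, with highest values of 545, 1576 and 1624 CPM in the same order, and their part in the class differences was not tested. In the counts of animals between classes, each animal and system counts as an animal. The identifier shared by an auditory and a visual sum is thus counted in both systems. Cplx1 was higher in the Tnnt1 than in the Calb2 class in 17 of 17 animals, with a log2 fold of 1.56 ± 0.18 (SE). It was higher in the Tnnt1 than in the Necab1 class in 19 of 19 animals, with a fold of 0.87 ± 0.17. Syt1 was higher in the Tnnt1 and Necab1 classes than in the Calb2 class in every animal, with folds of 0.57 ± 0.08 for Tnnt1 minus Calb2 (17 of 17) and 0.49 ± 0.07 for Necab1 minus Calb2 (18 of 18). Cplx2 went the other way, with -4.42 ± 0.59 for Tnnt1 minus Calb2 and lower values in 16 of 16 animals, and -2.19 ± 0.53 for Necab1 minus Calb2.

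Rab3b was almost absent outside the Calb2 class. The Tnnt1 class held 46 and the Necab1 class 182 of its UMIs, against 7231 in the Calb2 class. The Tnnt1 minus Calb2 fold was -6.43 ± 0.82, with lower values in 11 of the 12 animals in which the pair held more than 3 UMIs. Within the Calb2 class Rab3b had 227 ± 88.4 CPM in prefrontal, 50.3 ± 29.2 in auditory and 7.76 ± 9.40 in visual sums (SD, n = 4, 5 and 4), and 0 UMIs in the 5 motor sums together, which allows up to 0.341 CPM. The smaller differences were in Rab3a, with -0.30 ± 0.06 for Necab1 minus Calb2 (lower in 17 of 18 animals), and in Rab3c, with -0.20 ± 0.06 for Tnnt1 minus Necab1 (lower in 14 of 19). Syn1 had folds of -0.07 ± 0.08 for Tnnt1 minus Calb2, -0.02 ± 0.07 for Necab1 minus Calb2 and -0.05 ± 0.07 for Tnnt1 minus Necab1 (SE). Syt2 had 9 lower and 2 higher animals for Tnnt1 minus Calb2, and a fold of -0.71 ± 0.83, which was 0.54 without auditory neurons.

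The class fold of Syn2 had both signs among the systems, a difference given here without a test. Its Tnnt1 minus Calb2 log2 fold was -2.97 ± 0.32 (SE) in prefrontal and -0.84 ± 0.23 in auditory neurons, and 0.84 ± 0.24 in motor and 0.25 ± 0.26 in visual neurons. The Tnnt1 class had 221 ± 135 CPM of Syn2 in prefrontal, 407 ± 106 in auditory, 211 ± 34.0 in motor and 153 ± 34.7 in visual sums (SD, n = 3, 5, 5 and 4), whereas the Calb2 class had 1907 ± 968, 728 ± 193, 126 ± 63.3 and 131 ± 43.4 CPM in the same systems (n = 4, 5, 5 and 4). Cplx1 kept 1 direction, with 3.25 ± 0.27 in prefrontal, 1.79 ± 0.21 in auditory, 1.09 ± 0.23 in visual and 0.71 ± 0.21 in motor neurons. Syt1 did so too, with 1.35 ± 0.11, 0.57 ± 0.09, 0.26 ± 0.10 and 0.40 ± 0.09 in the same order of systems. In prefrontal sums Syt1 was 2150 ± 48.5 CPM in the Tnnt1 class, against 888 ± 131 CPM in the Calb2 class (n = 3 and 4).

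**Figure D4:**
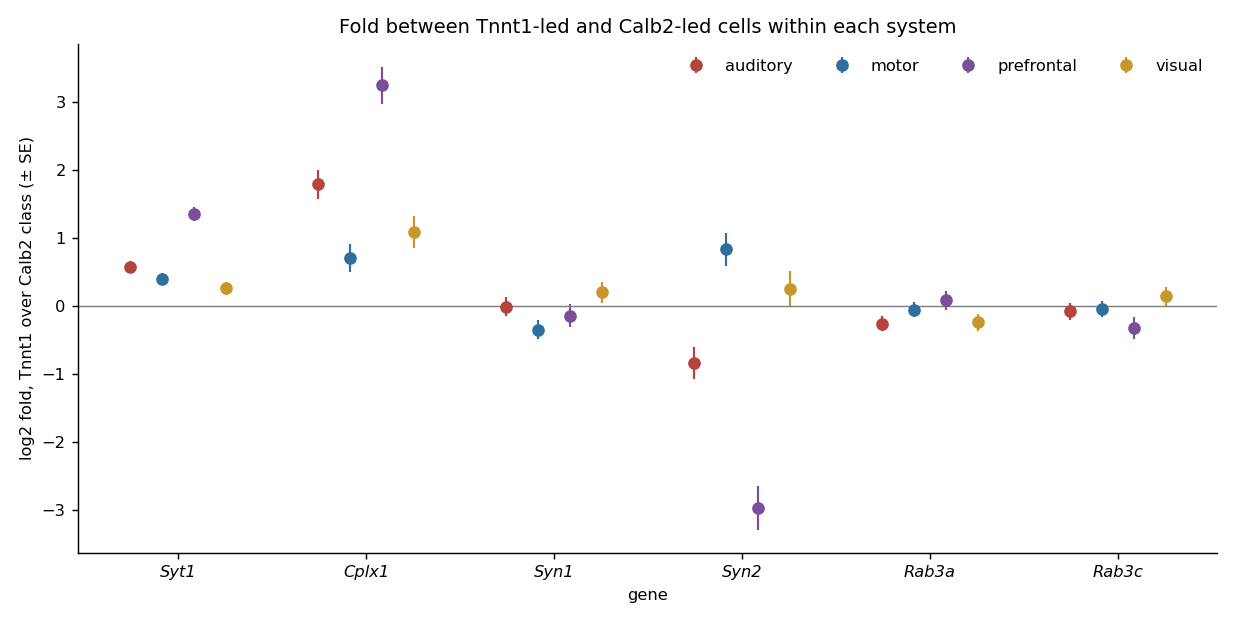
Tnnt1 minus Calb2 log2 fold of Syt1, Cplx1, Syn1, Syn2, Rab3a and Rab3c in auditory, motor, prefrontal and visual neurons, as a point with its standard error. Cplx1 is above 0 in all 4 systems (0.71 to 3.25), while Syn2 runs from -2.97 in prefrontal to 0.84 in motor neurons.

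The other genes of the release machinery were tested in the same fit, each system set against the other 4 on average (quasi-likelihood test of edgeR, sequencing batch as a covariate, Benjamini-Hochberg adjustment over 17211 genes, threshold 0.05). Of the 57 genes in 7 lists, 54 could be tested. Cplx3, Cplx4 and Syt6, with 1, 13 and 8 UMIs in all cells, could not. The 5 comparisons share samples and are not independent. In prefrontal neurons 11 machinery genes were higher and 5 lower, where the shares over all tested genes were 5.19% and 3.97%. In auditory neurons 8 were higher and 5 lower, against backgrounds of 4.28% and 3.69%. In motor neurons 4 were higher and 5 lower, against 2.32% and 1.59%. In somatosensory neurons 0 were higher and 1 lower, against 0.0349% and 0.198%, and in visual neurons 0 passed in either direction, against 0.0465% and 0.0988%. In visual neurons 10 of the 54 machinery genes had an unadjusted p under 0.05 with edgeR, where 7.61% of all tested genes did, and DESeq2 called 2, where it called 1.08% of all genes. The median log2 fold of the 54 genes was 0.06 in prefrontal neurons, against 0.02 for all genes, and 0.02 in auditory, 0.03 in motor, -0.08 in somatosensory and 0.05 in visual neurons.

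Of 13 tested synaptotagmins and C2 sensors, 6 rose and 1 fell in prefrontal neurons, 4 rose and 3 fell in auditory neurons, and 2 rose and 3 fell in motor neurons. Syt17, a synaptotagmin relative without known calcium binding, averaged 155 ± 42.9 CPM in prefrontal sums and 17.1 ± 11 CPM in the others (SD, n = 4 and 17), with no overlap and a log2 fold of 3.48 ± 0.33 (SE; edgeR, adjusted p = 1.14e-06). Syt4, which sits on dense-core vesicles, averaged 600.0 ± 44.3 CPM in prefrontal sums and 303 ± 67.6 in the others, again with no overlap (0.98 ± 0.10; edgeR, adjusted p = 3.02e-06), and it was the 1 gene that fell in somatosensory neurons (-0.72 ± 0.15; edgeR, adjusted p = 0.0440). Doc2a and Doc2b, high-affinity calcium sensors, rose in prefrontal neurons by 4.72 ± 0.77 and 3.29 ± 0.67 (edgeR, adjusted p = 0.000317 and 0.00260). Doc2a also rose in auditory neurons (3.38 ± 0.61; edgeR, adjusted p = 0.00130) and fell in motor neurons (-5.22 ± 1.00; edgeR, adjusted p = 0.00417).

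Syt10, a sensor for the release of growth factor in mouse olfactory bulb, averaged 20.5 ± 9.70 CPM in auditory sums and 4.25 ± 5.98 CPM in the others (3.96 ± 0.69; edgeR, adjusted p = 0.00102), and 0.0480 ± 0.0659 CPM in motor sums against 10.6 ± 9.96 in the others (-6.33 ± 1.23; edgeR, adjusted p = 0.00469). Syt16, a relative without a calcium-binding site, averaged 50.6 ± 4.12 CPM in auditory sums and 26 ± 6.76 in the others, with no overlap (0.98 ± 0.16; edgeR, adjusted p = 0.000650). Syt7, the slow sensor of facilitation and asynchronous release, rose in motor neurons (0.40 ± 0.07; edgeR, adjusted p = 0.00296) and fell in auditory neurons (-0.36 ± 0.08; edgeR, adjusted p = 0.00584). Syt9, a fast sensor of striatal and limbic neurons, rose in motor (0.79 ± 0.16; edgeR, adjusted p = 0.00637) and fell in prefrontal neurons (-0.96 ± 0.19; edgeR, adjusted p = 0.00176). Syt5 was higher in prefrontal and auditory and lower in motor neurons (1.25 ± 0.27, 0.91 ± 0.24 and -1.39 ± 0.27; edgeR, adjusted p = 0.00369, 0.0213 and 0.00466). The extreme means of these 3 genes lay partly in other systems. Syt7 was highest in somatosensory (407 CPM) and lowest in visual sums (200 CPM). In somatosensory sums Syt9 had its highest mean (113 CPM) and Syt5 its lowest (32.7 CPM).

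Of the 9 SNARE genes and partners, 1 rose and 2 fell in prefrontal, 1 rose and 1 fell in auditory, and 2 rose and 1 fell in motor neurons. Vamp1, a vesicle SNARE prominent in brainstem and spinal cord, averaged 104 ± 44.6 CPM in prefrontal sums and 258 ± 99.3 in the others (-1.15 ± 0.21; edgeR, adjusted p = 0.000846), and was higher in motor neurons (0.85 ± 0.18; edgeR, adjusted p = 0.00656). Snap25, the main SNARE of the target membrane, moved by -0.37 ± 0.09 in prefrontal and 0.37 ± 0.08 in motor neurons (edgeR, adjusted p = 0.0137 and 0.0114). Vamp1 and Snap25 both had their highest mean in somatosensory sums (364 and 4441 CPM). Stx1a, a syntaxin, rose by 1.38 ± 0.28 in prefrontal neurons (edgeR, adjusted p = 0.00252). Vamp2, the principal vesicle SNARE, passed in none of the 5 systems.

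Of 13 priming and active zone genes, 2 rose and 2 fell in prefrontal neurons, 1 rose in auditory and 1 fell in motor neurons. In prefrontal neurons the priming factor Unc13c fell by 1.34 ± 0.26 and Rims3 by 0.39 ± 0.10 on the log2 scale, while the RIM-binding gene Rimbp2 rose by 0.91 ± 0.18 (edgeR, adjusted p = 0.00178, 0.0117 and 0.00203). Synpr, which encodes the vesicle protein synaptoporin, rose in prefrontal (6.07 ± 0.88) and auditory neurons (3.89 ± 0.73; edgeR, adjusted p = 0.000104 and 0.00180). The 3 GABA neuron markers summed to 2.66 to 17.1 CPM in prefrontal and 0 to 21.3 CPM in auditory sums, against at most 0.360 CPM in each other sum, nearly all of it Gad2, while Gad1 and Slc32a1 stayed at or under 0.509 CPM. Without the 49 cells that held at least 3 markers of a different cell type, Synpr had log2 folds of 6.00 in prefrontal and 3.89 in auditory neurons. That filter needed all 3 GABA neuron markers in a cell. Gad2 was detected in 1.47% of cells, Gad1 in 0.558% and Slc32a1 in 0.152%, so most cells with Gad2 stayed in. The part of cells with Gad2 in the Synpr folds was not tested. The calcium channel gene Cacna1e rose in auditory neurons (1.196 ± 0.31; edgeR, adjusted p = 0.0181). Of the 8 genes of the Rab3 cycle, among them the exchange factor Madd and the effector Rph3a, 0 passed in any system with edgeR. An unadjusted p under 0.05 was found for 2 of them in prefrontal, 2 in auditory, 1 in motor, 1 in somatosensory and 0 in visual neurons, where 21%, 20.8%, 15.7%, 8.65% and 7.61% of all tested genes had one. DESeq2 called 1 of the 8 in prefrontal and 1 in somatosensory neurons and 0 in the other 3 systems, where it called 12.2% of all genes in prefrontal, 1.58% in somatosensory, 10.7% in auditory, 6.46% in motor and 1.08% in visual neurons.

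**Figure D5:**
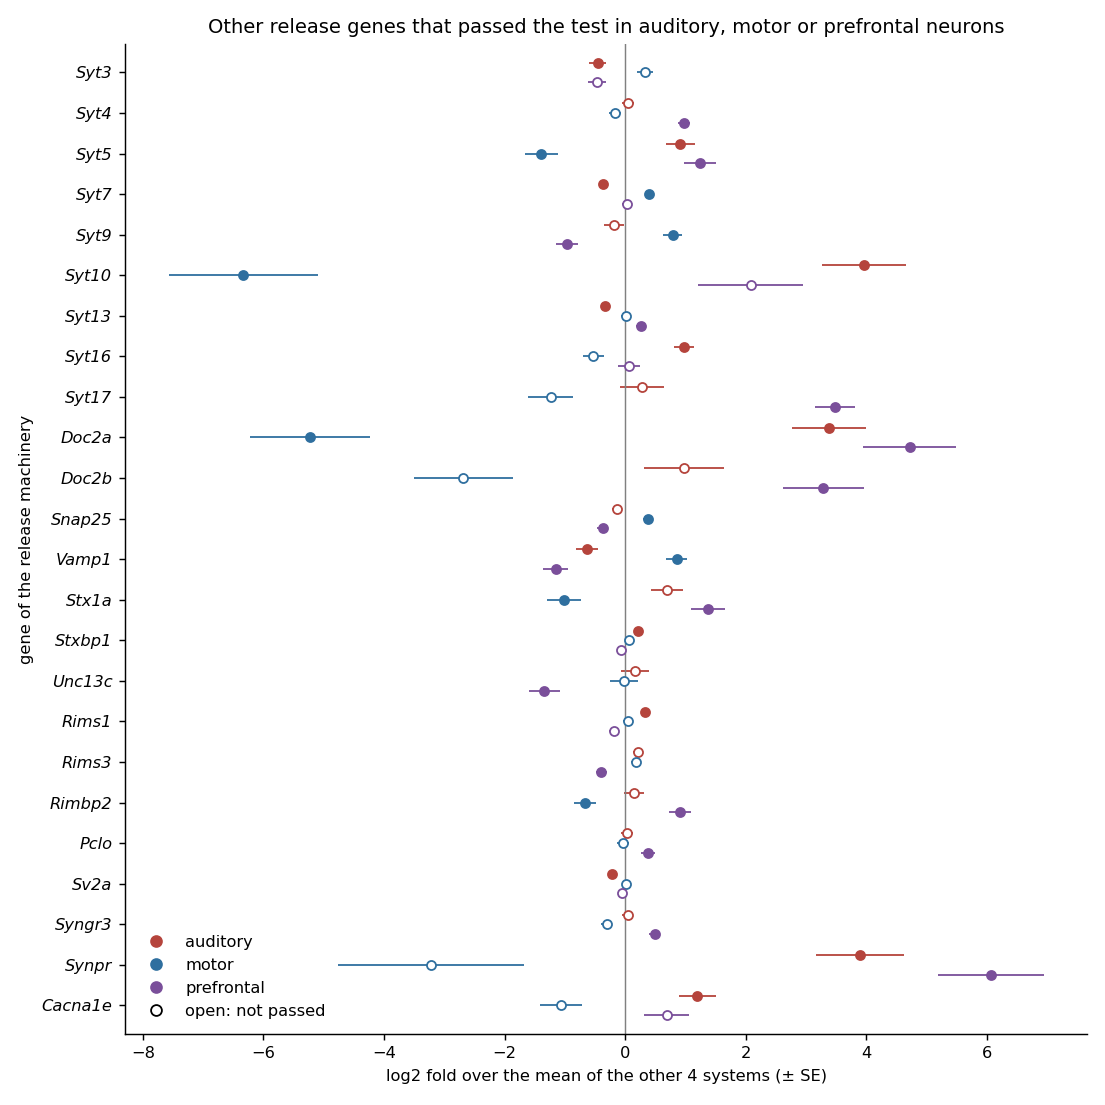
Log2 fold in auditory, motor and prefrontal neurons over the mean of the other 4 systems, for the release machinery genes that passed in at least 1 of the 3, with filled points where the adjusted p was under 0.05 and bars for the standard error. Syt17 stands at 3.48 in prefrontal neurons, and Syt10 at 3.96 in auditory and -6.33 in motor neurons.

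The counts depended on single sums and batches. Without auditory replicate 5, the 1 auditory sum of batch 3, 2 machinery genes passed in auditory neurons in place of 13. Without sequencing batch 1, which holds all of Pfr_3, 6 passed in prefrontal neurons in place of 16 and 1 in motor neurons in place of 9. Syt17 and Syt4 passed in prefrontal neurons in 21 of 21 fits that left out 1 sum, Syt16 and Syt7 passed in auditory neurons in 21 of 21, and Syt4 passed in somatosensory neurons in 7 of 21.

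Between classes, 50 machinery genes could be tested (12035 genes, animal and system as a block). This count was added after the data had been seen. For Tnnt1 minus Calb2, 9 rose and 10 fell, where 5.74% of all genes tested rose and 6.31% fell. For Necab1 minus Calb2, 13 rose and 3 fell, against 5.26% and 7.29%. For Tnnt1 minus Necab1, 3 rose and 12 fell, against 2.81% and 2.59%. Without prefrontal neurons the first 2 counts were 12 in place of 19 and 9 in place of 16, and without visual neurons the last was 9 in place of 15. Without the cells that held at least 3 markers of a different cell type, the 3 counts were 17, 16 and 13. Of 13 synaptotagmins and C2 sensors, 2 rose and 6 fell for Tnnt1 minus Calb2. Syt5 averaged 30.1 ± 21.5 CPM in the Tnnt1 and 172 ± 78.1 CPM in the Calb2 class (SD; log2 fold -2.51 ± 0.26; edgeR, adjusted p = 1.01e-09), and Doc2a 0.0899 ± 0.176 and 20.8 ± 27.8 CPM (-5.87 ± 0.93; edgeR, adjusted p = 1.38e-05).

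Vamp1 averaged 332 ± 103 CPM in the Tnnt1 class and 135 ± 88.5 CPM in the Calb2 class (1.33 ± 0.21; edgeR, adjusted p = 5.97e-06). Stx1a averaged 24.1 ± 15.4 and 91.7 ± 52.6 CPM in the same classes (-1.84 ± 0.20; edgeR, adjusted p = 7.77e-09). Syngr3, a synaptogyrin of the vesicle membrane, averaged 471 ± 88.6 and 740 ± 153 CPM (-0.62 ± 0.07; edgeR, adjusted p = 9.60e-09). For Necab1 minus Calb2, 5 of 13 priming and active zone genes rose and 0 fell; the scaffold gene Pclo and Rims1 rose by 0.44 ± 0.09 and 0.50 ± 0.09 (edgeR, adjusted p = 0.000554 and 0.000128). Rph3a, a Rab3 effector, was higher in the Necab1 class than in the Calb2 class (0.50 ± 0.11) and lower in the Tnnt1 class than in the Necab1 class (-0.71 ± 0.11; edgeR, adjusted p = 0.000924 and 1.17e-05). The median UMIs per cell were 90468 in the Tnnt1, 83771 in the Necab1 and 87726 in the Calb2 class.

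Genes whose level ran most like that of a member were sought among 8840 named genes over the 21 sums, by Pearson's r of log2(CPM + 1). The sums share plates, batches and systems, so the r values are descriptions. Nearest to Cplx1 were Slc24a2 (r = 0.974), Rasgrp1 (0.968) and Car4 (0.959). Nearest to Rab3b were Ndn (0.935), Doc2a (0.934) and Sdc2 (0.932), and nearest to Syn2 were Hpcal4 (0.927), Igfbp7 (0.922) and Atp6v1g2 (0.920). Nearest to Syt2 were Clstn1 (0.854), Cacnb4 (0.830) and Nr2f2 (0.826). Cplx2 had the loosest partners, Tpbg (0.849), Nrgn (0.788) and Rgs2 (0.772).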

How the data were processed

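The submitters' processing notes name STAR 2.5.3, Picard 1.12, cutadapt 1.16 and the build mm10. The sources used here give neither the annotation nor how UMIs were assigned to genes. The authors deposited UMI counts per cell that were not normalized, and a table of each cell's plate, animal, sort date, system and clusters. No filter on cells was added and no doublet caller was run, since cells were picked by hand. The authors' table flags 20 cells, the same 20 that have no cluster, for a reason not given in the sources used here. Another 49 cells had at least 3 detected markers of a different type of cell. Both sets were left out as alternatives. All deposited columns of samples were used.

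Counts were summed per animal and system (sums of at least 10 cells), or per animal, system and class (at least 5 cells). Each sum was 1 replicate, and p-values rest on the spread between these sums. Tests used edgeR 4.0.16 in R 4.3.3 with TMM (factors of 0.956 to 1.06), filterByExpr, a trended dispersion, glmQLFit and glmQLFTest, with Benjamini-Hochberg adjustment at 0.05. Systems were fitted with sequencing batch on 14 residual degrees of freedom, and classes with animal and system as a block on 57 sums and 35 residual degrees of freedom. DESeq2 1.42.0, other scalings, filters and subsets were alternatives. The scripts were tested on simulated data.

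The members and lists were chosen with earlier results of these data known. A test of the members between classes had been planned, but its p-values are not given, because the authors' clusters, over which the members were chosen, split the same cells. Named are the members, any gene of the machinery lists, and per varying member the 3 genes with the highest Pearson r. Gene positions come from GENCODE vM21 and promoters from RefSeq, on GRCm38.p6. Overlaps of a member with a gene on the opposite strand (Araf for Syn1, Ppp1r12b for Syt2, Timp4 for Syn2, Mpv17l2 for Rab3a) leave those counts uncertain. Intervals and limits cover counting error only.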

Additional observations from a re-analysis of the deposited data

Results flagged for a closer look

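Syt2 in prefrontal replicate 4 stood far from the other prefrontal sums, with 11.4 CPM against 0 to 0.0984 CPM. Of the 67 Syt2 UMIs of that sum, 52 (77.6%) came from 1 cell, which lies in Pfr_1. Rab3b in auditory replicate 5 stood above the other auditory sums, with 63.0 CPM against 17.4 to 25.2 CPM, and Aud_3 made up 33.3% of the cells of that sum. Of 36 groups of 4 or 5 sums examined, 2 had such a sum, where chance flags about 1 in 20. The Necab1 minus Calb2 difference of Rab3b was 1.88 on the log2 scale in motor neurons, higher in the 3 of 5 animals whose pair of sums held more than 3 UMIs. It was -4.53 in auditory, -6.21 in prefrontal and -2.36 in visual neurons, lower in 5 of 5, 4 of 4 and 3 of 3 such animals. These differences between systems were not tested, and the motor value rests on 73 UMIs in the Necab1 and 0 in the Calb2 class. Single cells held most Rab3b UMIs of some motor sums. In motor replicates 1, 2 and 4, 1 cell of Mot_3 held 17 of 25, 38 of 43 and 5 of 5 of them.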

How the results depend on the processing

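Counts of release machinery genes that passed depended on the batch, the unit of summing and the tool, and the cause was not tested. Fits without batch 2 held no somatosensory sum and fits without batch 3 no visual sum. Those fits thus set each system against fewer other systems, and their counts belong to a different comparison. In auditory neurons 13 passed, and 7 without a batch term, 7 with sums per sort date, 5 without sequencing batch 2 and 6 without batch 3. In motor neurons 9 passed, and 14 with DESeq2, 3 without a batch term, 1 with sums per sort date, 1 without batch 1, 15 without batch 2 and 3 without batch 3. In prefrontal neurons 16 passed, and 6 without batch 1. In somatosensory neurons 1 passed, and 4 with DESeq2, 2 with library totals, 9 without a batch term, 6 with no filter, and 0 with sums per sort date, without batch 1 or without the flagged cells. In visual neurons 0 passed, and 2 with DESeq2, 2 without a batch term, 3 with no filter and 1 without batch 2. Leaving out 1 sum at a time gave 2 to 14 in auditory (2 without auditory replicate 5), 6 to 11 in motor, 13 to 17 in prefrontal, 0 to 2 in somatosensory and 0 to 1 in visual neurons.

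Between classes, 19, 16 and 15 passed for Tnnt1 minus Calb2, Necab1 minus Calb2 and Tnnt1 minus Necab1. The first 2 were 12 and 9 without prefrontal neurons, the second 25 with DESeq2, and the third 9 without visual neurons. Leaving out 1 animal and system at a time gave 14 to 20, 12 to 18 and 11 to 15. With no replicate block, in place of the block of animal and system that pairs the classes, 19, 15 and 16 passed. For systems no paired analysis was possible because the replicate numbers only name the animals. Of the member folds between systems that were larger than 2 SE, 1 changed sign: Rab3c in somatosensory neurons was 0.20, and -0.024 without a batch term. Another 38 recomputed member folds between systems moved by at least the SD of log2(CPM + 1) over the sums of the system, and 1428 moved by less. Syt2 in motor neurons was 4.15, and 2.97 without batch 1. It was 5.45 without batch 2, where somatosensory neurons are no longer among the other systems. Rab3b in auditory neurons was 2.45, and 1.121 without auditory replicate 5 and 3.35 without batch 1. A UMI of Syt2, Cplx2 and Rab3b was found in 114, 287 and 220 of 1972 cells. Thinning to 20000 UMIs moved 13 of 45 shares of cells with a UMI by less than the SD between sums. The other 32 include shares that stayed at 100% with an SD of 0, such as that of Syt1 in motor neurons.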
